A study of Mus musculus with 8 samples.

Results

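Histone messenger RNA was followed in mouse CD4 T cells at rest and after stimulation. The 70 genes described here were those whose symbol marks a clustered histone gene (Hist1 to Hist4, or the newer H1f, H2ac, H2bc, H3c and H4c names) among the 25124 genes of the deposited count table. They comprised 7 linker histone H1 genes and 19 H2A, 19 H2B, 12 H3 and 13 H4 genes of the nucleosome core. The cells were spleen CD4 T cells from mice with both the KLF2(GFP) and the FOXP3(RFP) reporter, in which green fluorescence reported KLF2, a transcription factor of resting T cells, and red fluorescence reported FOXP3, the factor of regulatory T cells. Cells negative for FOXP3 and high in CD44, a surface protein of activated and memory T cells, were sorted as KLF2+ or KLF2-. Each population was cultured for 48 h with no stimulus, or with anti-CD3 antibody at 2.5 µg/mL together with anti-CD28 antibody at 1.25 µg/mL, which engage the T cell receptor and its costimulatory receptor. This gave 4 groups with 2 libraries each, numbered 1 and 2 in both KLF2+ groups and 3 and 4 in both KLF2- groups. The labels gave neither the age of the mice nor whether the libraries of a group came from separate mice or dishes. The p-values below therefore rest on the spread among these samples alone, which may be technical.

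Each time a cell copies its DNA it needs a new set of histones to wrap it, and most of these come from the clustered genes, which are transcribed mainly in S phase. Their transcripts are unlike other messenger RNAs: most have no intron, and the end is cut just after a short stem-loop that takes the place of a poly(A) tail. The stem-loop binding protein, encoded by Slbp, holds that structure through processing, translation and decay. Resting T cells divide little, and stimulation through the T cell receptor and CD28 drives them into the cell cycle. The rule also took 6 genes that are not of this kind: H1f0, a linker histone made outside S phase, the testis genes Hist1h1t, Hist1h2aa and Hist1h2ba, and the pseudogene models Hist1h2al and Hist3h2bb-ps. Another 8 rows lay in 4 pairs on the same coordinates but opposite strands (Hist1h2ao with Hist1h2ap, Hist1h2bq with Hist1h2br, Hist2h2aa1 with Hist2h2aa2 and Hist2h3c1 with Hist2h3c2) and held nearly the same reads. Counting each such place once and leaving out the 6 other genes left 60 replication-dependent loci, over which family sums were taken.

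The stem-loop is the feature the family shares, and it is shown for members that the results below turn on. It was searched in the GENCODE M21 transcripts of the mouse build mm10, as a stem of 6 base pairs closed by a loop of 4 bases. It was found in transcripts of 44 of the 70 members, and in 61 of 141767 transcripts overall (0.0430%). The 16 bases of the stem-loop are in capitals, with 5 bases on each side, written as DNA.
Hist1h4d: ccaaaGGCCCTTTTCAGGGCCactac
Hist1h4i: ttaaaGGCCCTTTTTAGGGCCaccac
Hist1h3c: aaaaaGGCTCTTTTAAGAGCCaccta
Hist1h2ae: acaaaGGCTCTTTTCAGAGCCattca
Hist2h2ac: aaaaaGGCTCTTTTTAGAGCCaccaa
Hist1h1e: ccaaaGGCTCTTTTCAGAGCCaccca
Hist3h2a: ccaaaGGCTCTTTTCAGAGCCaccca
The form in Hist1h2ae, Hist1h1e and Hist3h2a was found in 26 members, that of Hist1h4d in 7, that of Hist1h3c in 6 and that of Hist1h4i in 2. Hist2h2ac alone held its form, and 2 more forms occurred in 1 member each. In 22 of the 44 the annotated transcript ran more than 100 bases beyond the stem-loop, so that the annotation also records longer ends. H1f0, Hist1h1b, Hist1h2ak, Hist1h2bc, Hist2h2be, Hist1h2al, Hist1h2bq and Hist1h2br were the tested members whose annotated transcript did not hold these letters. For Hist1h1b, Hist1h2ak and others the model may end short of it, which was not tested.

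Promoters are shown for 5 members that stood out in the data, as windows from RefSeq (build GRCm38.p6) that run from 250 bases before the start of the gene to 50 bases after it. Hist1h4d, Hist1h2ag, Hist1h2ae and Hist1h1e rose with stimulation, and Hist3h2a had the highest level per length of exon in unstimulated KLF2+ cells once H1f0 was left aside. Capitals mark matches on either strand to the CCAAT box, the TATA box TATAAA, the octamer ATTTGCAT, the E2F-type motif TTTGGCGC or its form TTTCGCGC, and the motif AAACACA, known from H1 promoters.
Hist1h4d (chr13:23581318-23581617, plus strand): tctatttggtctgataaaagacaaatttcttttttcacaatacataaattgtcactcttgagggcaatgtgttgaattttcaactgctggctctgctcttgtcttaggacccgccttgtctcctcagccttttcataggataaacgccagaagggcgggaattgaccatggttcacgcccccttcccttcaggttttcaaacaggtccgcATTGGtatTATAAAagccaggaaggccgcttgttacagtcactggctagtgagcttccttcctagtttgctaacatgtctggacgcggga
Hist1h2ag (chr13:22042900-22043199, minus strand): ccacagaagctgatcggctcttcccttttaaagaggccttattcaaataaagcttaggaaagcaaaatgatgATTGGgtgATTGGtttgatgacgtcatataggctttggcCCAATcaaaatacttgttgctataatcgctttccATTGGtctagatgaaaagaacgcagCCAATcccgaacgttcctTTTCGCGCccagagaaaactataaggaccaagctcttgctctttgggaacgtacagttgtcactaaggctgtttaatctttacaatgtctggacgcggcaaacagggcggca
Hist1h2ae (chr13:23571171-23571470, minus strand): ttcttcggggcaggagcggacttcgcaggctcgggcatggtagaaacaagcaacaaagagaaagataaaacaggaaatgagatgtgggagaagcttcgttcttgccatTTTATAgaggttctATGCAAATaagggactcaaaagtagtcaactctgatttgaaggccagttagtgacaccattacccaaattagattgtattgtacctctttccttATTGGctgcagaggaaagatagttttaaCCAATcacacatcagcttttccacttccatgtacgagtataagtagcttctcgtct
Hist1h1e (chr13:23622509-23622808, minus strand): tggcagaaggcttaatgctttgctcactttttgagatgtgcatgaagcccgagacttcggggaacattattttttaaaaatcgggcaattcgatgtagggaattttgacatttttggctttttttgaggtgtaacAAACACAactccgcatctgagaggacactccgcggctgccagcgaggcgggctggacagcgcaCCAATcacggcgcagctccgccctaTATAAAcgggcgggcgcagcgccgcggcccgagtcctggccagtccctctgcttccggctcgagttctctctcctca
Hist3h2a (chr11:58954435-58954734, plus strand): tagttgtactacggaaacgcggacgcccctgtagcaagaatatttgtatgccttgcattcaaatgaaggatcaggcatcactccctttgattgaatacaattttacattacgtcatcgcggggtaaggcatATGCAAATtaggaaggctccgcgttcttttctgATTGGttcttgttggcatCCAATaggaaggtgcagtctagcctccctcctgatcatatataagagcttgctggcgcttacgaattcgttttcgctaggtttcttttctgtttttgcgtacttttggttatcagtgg
The Hist1h2ag and Hist1h2ae windows also reach the start of an H2B gene that points the other way, Hist1h2bj and Hist1h2bg. Windows were found for 63 of the 70 members, and for 55 of the replication-dependent loci. CCAAT occurred in 46 of these 55 (83.6%) against 37.4% of 32544 windows of all genes, and TATAAA in 33 (60%) against 13.6%. Every H1, H2A, H2B and H3 window held CCAAT (5 of 5, 15 of 15, 14 of 14 and 9 of 9), while 3 of 12 H4 windows did. The octamer was in 11 windows (20.0% against 1.75%), 6 of H2A and 5 of H2B genes, and the E2F-type motif in 9 (16.4% against 0.820%), 5 of H2A and 4 of H2B genes. AAACACA was in 6 (10.9% against 7.20%), of which 4 were among the 5 H1 genes. Windows of a divergent pair share bases, so their matches are not independent, and a match describes letters only.

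The libraries differed in how much of them was messenger RNA, and this bears on all low levels below. Aligned tags numbered 33.9 M to 45.6 M per library (M for mega), of which 62% and 80.3% lay in exons after stimulation of KLF2+ cells and 23.6% and 43.9% before it, against 12.7% and 7.96% after stimulation of KLF2- cells and 18.1% and 19.5% before it. Exon reads numbered from 2.99 M (stimulated KLF2- replicate 4) to 36.6 M (stimulated KLF2+ replicate 2). Background was read from 1444 olfactory and vomeronasal receptors, the genes of smell, for which no role in T cells is known. At their reads per kb, background would make up 0.399% and 1.24% of exon reads in stimulated KLF2+ libraries, 2.61% to 7.81% in the unstimulated libraries, and 11.4% and 20.1% in the stimulated KLF2- libraries. The labels name polyA RNA and a pico kit for total RNA libraries, and their relation is not given in the sources used here. Which share of the histone transcripts without a poly(A) tail was captured was not tested. T cell markers (Cd3e, Cd3d, Cd3g, Cd4, Cd5 and Cd28) were summed as CPM (reads in parts per M after TMM scaling). The sums were 3284 and 4889 CPM in unstimulated and 4682.5 and 4883 CPM in stimulated KLF2+ cells. They were 2544 and 2732 CPM in unstimulated and 1836 and 1698 CPM in stimulated KLF2- cells. In the edgeR test described below, all 6 were higher in stimulated KLF2+ than in stimulated KLF2- cells, as were 35.5% of all genes tested. With scaling factors from genes of at least 50 CPM, 3 were higher and 1 lower.

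Reads of replication-dependent histone genes were few in 3 of the 4 groups and stood out in stimulated KLF2+ cells. Over the 60 loci the level summed to 49.6 and 56.5 CPM in unstimulated KLF2+ cells and to 230.4 and 266 CPM in stimulated KLF2+ cells. It was 47.8 and 54.2 CPM in unstimulated and 55.1 and 56.0 CPM in stimulated KLF2- cells. Both stimulated KLF2+ libraries lay above the other 6, which ranged from 47.8 to 56.5 CPM. The group means were 53.1 ± 4.90, 248 ± 25.3, 51.0 ± 4.59 and 55.6 ± 0.593 CPM (SD, n = 2 each) in that order, a ratio of stimulated to unstimulated of 4.68 in KLF2+ and 1.09 in KLF2- cells. With scaling factors from genes of at least 50 CPM these ratios were 3.30 and 1.44. The stimulated KLF2+ mean was 4.47 times the stimulated KLF2- mean, or 1.94 times with those factors. Even at the highest these loci made up 0.0167% of exon reads. In bulk RNA, more cells that make histone RNA and more histone RNA in each cell cannot be told apart.

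**Figure D1:**
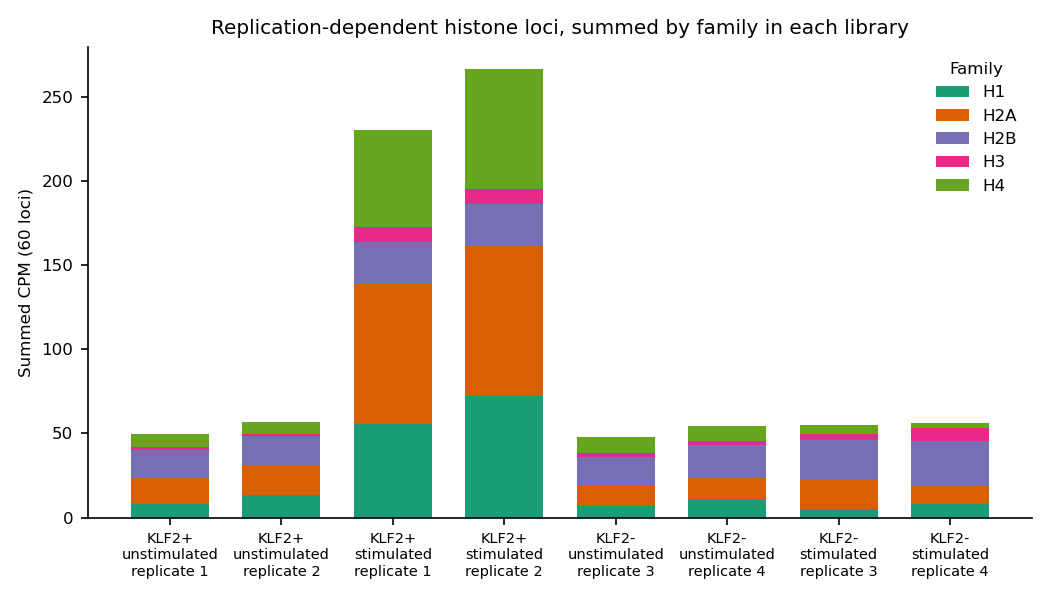
Bars give the summed level (CPM, linear axis from 0) of the 60 replication-dependent histone loci in each of the 8 libraries, stacked by family. The stimulated KLF2+ libraries reach 230.4 and 266 CPM and the other 6 stay between 47.8 and 56.5 CPM.

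Set against background, histone reads summed over the 60 loci were far above it in stimulated KLF2+ cells and close to it in KLF2- cells. The 60 loci held 21.9 and 77.7 times the background reads in the stimulated KLF2+ libraries. The ratio was 1.41 and 3.41 in unstimulated KLF2+, 1.34 and 1.63 in unstimulated KLF2- and 1.21 and 0.798 in stimulated KLF2- libraries. In KLF2- cells the reads over these loci were thus 0.798 to 1.63 times the background. Of the 70 members, 42 and 60 were above 3 times background in the stimulated KLF2+ libraries, 7 and 14 in unstimulated KLF2+, 6 and 7 in unstimulated KLF2-, and 8 and 4 in stimulated KLF2- libraries. The share of all genes above this cut was not worked out, so these counts are not set against other genes. The cut also moved with the library. Background was 3.82 and 2.15 reads per kb in stimulated KLF2+ and 7.59 and 8.83 in stimulated KLF2- libraries. At or under background were 15 and 5 members in stimulated KLF2+ and 55 and 39 in unstimulated KLF2+ libraries. They were 52 and 52 in unstimulated and 50 and 58 in stimulated KLF2- libraries. The sums thus joined members above background with members below it. In unstimulated KLF2- libraries Hist3h2a held 73 and 93.5 reads against 4.26 and 4.53 from background, while the H3 loci were at 0.428 and 0.487 times it. A sum close to background therefore does not place each member there. Whether the receptor background holds for histone loci was not tested. Every member had a read in at least 1 library.

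**Figure D2:**
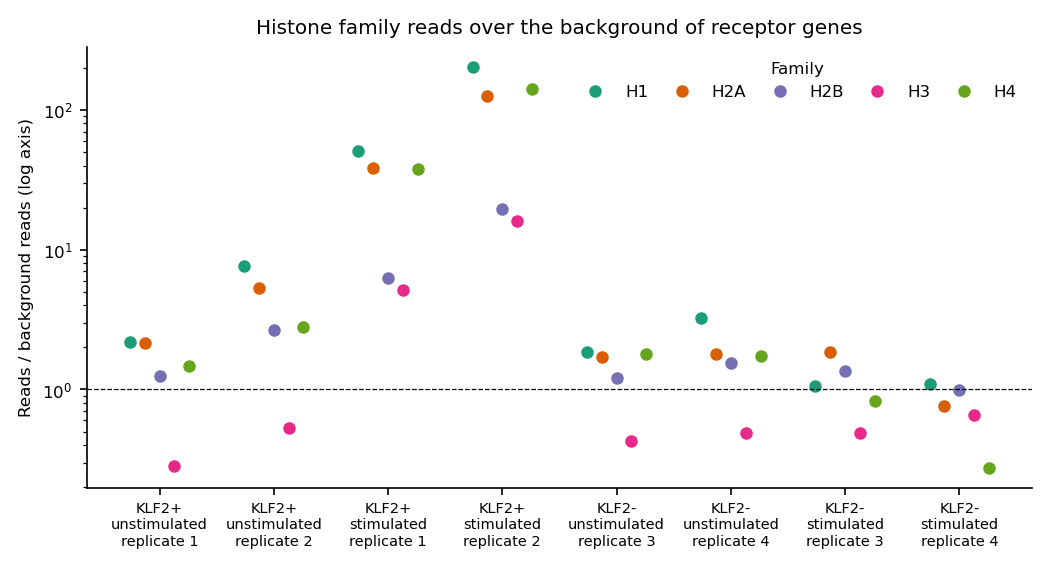
Points give, for each family and library, reads over the replication-dependent loci divided by the reads that the receptor background would give over the same exon length (log axis; the dashed line is 1). In stimulated KLF2+ libraries the families run from 5.19 to 203, and in the other 6 libraries from 0.276 to 7.70.

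All 5 families were higher in both stimulated than in both unstimulated KLF2+ libraries, and they differed in size. H4, which pairs with H3 at the centre of the nucleosome, summed to 7.60 and 6.79 CPM without and 57.7 and 70.8 CPM with stimulus (ratio of means 8.93). H1, which binds the DNA that enters and leaves the nucleosome, went from 7.99 and 13.3 to 55.5 and 72.4 CPM (6.00), and H3 from 1.63 and 1.42 to 8.91 and 8.99 CPM (5.85). H2A, which pairs with H2B, went from 15.8 and 18.2 to 83.4 and 88.7 CPM (5.07). H2B had the smallest ratio, 1.5, from 16.6 and 16.8 to 24.9 and 25.3 CPM. Genes with long exons held a larger part of its sum before than after stimulation, and the 13 H2B loci with under 800 bases of exon went from 5.91 and 8.51 to 18.1 and 19.9 CPM (2.63). TMM factors were also taken from genes of at least 50 CPM alone. The ratios were then 6.21 for H4, 4.32 for H1, 4.07 for H3, 3.58 for H2A and 1.05 for H2B. H2B was thus close to no change with them, and the other families stayed higher. The unstimulated KLF2+ sums were at 0.284 and 0.527 times background for H3 and 1.24 and 2.68 times for H2B. They were at 1.48 and 2.81 times for H4, 2.16 and 5.30 for H2A and 2.17 and 7.70 for H1. With the factors of the main fit, the ratios in KLF2- cells were 0.470 for H4, 0.714 for H1, 1.14 for H2A, 1.40 for H2B and 2.17 for H3. Factors from genes of at least 50 CPM gave 0.597 for H4, 0.967 for H1, 1.47 for H2A, 1.85 for H2B and 2.97 for H3. Each of the family sums in KLF2- libraries was at 0.276 to 3.25 times background.

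Stimulation of KLF2+ cells raised 15 histone genes and lowered 1 among the 26 with enough reads to test (edgeR quasi-likelihood test, adjusted p under 0.05 over 19146 genes). Of all genes tested, 37.1% were called, 19.7% as higher and 17.4% as lower. A gene could enter the test through the stimulated KLF2+ libraries alone, so the 26 are not a neutral sample of the 70. Over all 70, both stimulated libraries lay above both unstimulated ones for 50 members and below for 5, against 28.4% and 36.7% of the table's genes. The 50 included all 12 H3 genes, 13 of 19 H2A, 12 of 19 H2B, 9 of 13 H4 and 4 of 7 H1 genes, and 30 of them were among the untested. The median log2 fold change was 2.58 over the 26 and -0.25 over all genes tested. Factors from genes of at least 50 CPM moved the median of all genes to -0.75 for this response, to 0.45 for the KLF2- response, to -0.39 and -1.39 for KLF2+ against KLF2- cells without and with stimulus (from 0.06, -0.11 and -0.19), and to -1.0 for the difference in response (from -0.09). Without unstimulated KLF2+ replicate 1, 10 members were called as higher and 0 as lower.

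Among the H4 genes, Hist1h4d (mm10 chromosome 13, 23581568 to 23581969, plus strand) carried most of the family. Its level was 5.91 and 3.51 CPM in unstimulated KLF2+, 47.0 and 57.8 in stimulated KLF2+, 7.32 and 5.33 in unstimulated KLF2- and 3.30 and 1.74 CPM in stimulated KLF2- cells. Both stimulated KLF2+ libraries were far above all others, and the KLF2- groups did not overlap either, with the stimulated ones lower. The KLF2+ response on the log2 scale was 3.50 ± 0.40 (SE, n = 2 per group), with an edgeR adjusted p of 0.000759, the smallest among the members. Hist1h4i (chromosome 13, 22040960 to 22041362, minus strand) rose from 0.619 and 0.364 to 4.49 and 5.34 CPM, by 3.22 ± 0.68 on the log2 scale (edgeR adjusted p = 0.00863). KLF2- cells had 0.465 and 0.964 CPM without and 0.659 and 0.436 CPM with stimulus for this gene. Hist1h4c stood at 0.225 and 1.03 and then 2.11 and 2.01 CPM, a log2 fold change of 1.59 that was not called (adjusted p = 0.169), and in KLF2- cells at 0.581 and 0.203 and then 0.412 and 0 CPM. Hist1h4h was too low to test, at 0.281 and 0.729 CPM without and 0.831 and 1.29 CPM with stimulus in KLF2+ cells and 0.232 and 0.913 and then 0.330 and 0 CPM in KLF2- cells. The other 9 H4 genes had group means of at most 1.51 CPM in stimulated KLF2+ cells. Most H4 genes encode the same protein, so these differences are between gene copies.

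H3 reads were few, and 1 of the 12 H3 genes had enough reads to test. Hist1h3c (chromosome 13, 23745042 to 23745521, minus strand) was at 0.113 and 0.0663 CPM in unstimulated and 2.53 and 1.98 CPM in stimulated KLF2+ cells, and had no read in any KLF2- library. It was called higher in the KLF2+ response (edgeR adjusted p = 0.0130). With 79 reads against 2, the ratio of scaled reads was 26.2 (exact 95% interval 7.01 to 220.0, counting error only), and without unstimulated KLF2+ replicate 1 the adjusted p was 0.0627. Hist1h3f, Hist1h3e and Hist1h3i were the most abundant other H3 genes. Hist1h3f was at 0.563 and 0.398 CPM and then 0.982 and 0.698 CPM in KLF2+ cells, and at 0.581 and 0.913 and then 0.824 and 3.16 CPM in KLF2- cells. Hist1h3e stood at 0.281 and 0.0663 and 0.491 and 0.480 CPM, and Hist1h3i at 0.0563 and 0.331 and 0.415 and 0.502 CPM, before and after stimulation of KLF2+ cells. In KLF2- cells Hist1h3e was at 0.581 and 0.710 and then 0.577 and 0.871 CPM, and Hist1h3i at 0.349 and 0.609 and then 0.577 and 1.96 CPM. For these 3 genes the highest single value was in stimulated KLF2- replicate 4, the library in which background took the largest share of exon reads (20.1%).

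Among the H2A genes, the response was led by a few copies of the chromosome 13 cluster. Hist1h2ao (chromosome 13, 21833024 to 21833575, minus strand) was at 0.732 and 1.13 CPM in unstimulated KLF2+ cells and 38.7 and 36.8 CPM in stimulated ones, with 1.05 and 0.304 and then 5.77 and 0.653 CPM in KLF2- cells. In KLF2- cells the stimulated libraries lay above and below unstimulated replicate 3, since stimulated replicate 3 was high and replicate 4 was not. The KLF2+ response was 5.33 ± 0.81 (edgeR adjusted p = 0.00237). Hist1h2ap lies on the same place on the other strand, with 5.32 ± 0.81 (adjusted p = 0.00241). RefSeq places Hist1h2ao at 21810367 to 21810918 and Hist1h2ap at the table's position, so the 2 rows count as 1 place here. Hist1h2ae (chromosome 13, 23570663 to 23571220, minus strand) rose from 1.24 and 0.364 to 20.2 and 22.4 CPM, by 4.77 ± 0.62 (adjusted p = 0.00128), and stood at 1.28 and 0.761 and then 3.63 and 2.29 CPM in KLF2- cells.

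Another 3 H2A genes rose and are named here after their values were seen, as are Hist1h2bm, Hist1h2be, Hist2h2ac and the partners of divergent pairs below. Hist1h2ab had no read in unstimulated KLF2+ libraries and was at 3.89 and 4.14 CPM in stimulated ones, at least 15-fold higher than a floor of 3 counts in each library allows (edgeR adjusted p = 0.00619). Hist1h2ag went from 0.338 and 0.364 to 6.31 and 6.54 CPM (4.08 ± 0.83, adjusted p = 0.00731), and Hist1h2ak from 0.338 and 0.166 to 2.11 and 2.40 CPM (3.30 ± 1.05, adjusted p = 0.0362). The Hist1h2ak call was lost without unstimulated KLF2+ replicate 1 (0.0924), unstimulated KLF2+ replicate 2 (0.102), stimulated KLF2+ replicate 2 (0.0953), or unstimulated KLF2- replicate 3 (0.0590) or 4 (0.0602).

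Hist3h2a, an H2A gene of the small chromosome 11 cluster (chromosome 11, 58954685 to 58955192, plus strand), had values on the other side. It stood at 11.5 and 13.6 CPM in unstimulated and 5.78 and 6.76 CPM in stimulated KLF2+ cells, and at 8.48 and 9.49 and then 3.71 and 4.25 CPM in KLF2- cells. In both populations the stimulated libraries lay below the unstimulated ones. The KLF2+ log2 fold change was -1.01 ± 0.38, which was not called (edgeR adjusted p = 0.0600), and the KLF2- one -1.18 ± 0.41 (adjusted p = 0.275). With factors from genes of at least 50 CPM it was -1.5 in KLF2+ cells and was called (0.0284). Hist2h2ac, on chromosome 3, was at 0.507 and 0.497 and 1.62 and 2.36 CPM before and after stimulation of KLF2+ cells (2.00, not called, adjusted p = 0.0713).

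Only 2 of the 8 tested H2B genes were called in the KLF2+ response, both higher. Hist1h2bj (chromosome 13, 22043198 to 22043658, plus strand) stood at 0.113 and 0.133 CPM without and 5.89 and 5.78 CPM with stimulus (edgeR adjusted p = 0.00620), a ratio of 46.5 (exact 95% interval 15.7 to 227, counting error only) from 3 unstimulated reads. In KLF2- cells it was at 0.116 and 0.101 CPM and then 1.32 and 0.109 CPM, high in stimulated replicate 3 alone. Hist1h2bm went from 0.0563 and 0.133 to 1.32 and 2.7 CPM (adjusted p = 0.0185), a ratio of 21.1 (7.10 to 223). The Hist1h2bm call was lost without unstimulated KLF2+ replicate 1 (0.0901) or stimulated KLF2+ replicate 2 (0.0752). The more abundant H2B genes showed no called change. Hist2h2be (chromosome 3, 96221072 to 96223738, plus strand), whose row holds 2664 bases of exon, was at 9.01 and 7.52 CPM and then 5.70 and 4.01 CPM in KLF2+ cells, with 6.33 and 8.32 and then 11.9 and 16.9 CPM in KLF2- cells. Its stimulated libraries were thus the lowest of all in KLF2+ cells and the highest of all in KLF2- cells. The log2 fold changes were -0.77 ± 0.41 (adjusted p = 0.152) and 0.98 ± 0.42 (0.328).

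Hist1h2bc, a spliced H2B gene (chromosome 13, 23684199 to 23692480, plus strand), was at 1.63 and 2.78 CPM and then 5.74 and 5.00 CPM in KLF2+ cells (1.27, edgeR adjusted p = 0.0727), and was called without unstimulated KLF2+ replicate 2 (1.80, 0.0392). In KLF2- cells it stood at 5.29 and 4.77 and then 2.72 and 3.59 CPM. Hist3h2ba, next to Hist3h2a in the chromosome 11 cluster, was at 3.26 and 3.74 and then 1.36 and 1.51 CPM in KLF2+ cells (-1.29, adjusted p = 0.112), and at 0.755 and 0.964 and then 0.577 and 0.218 CPM in KLF2- cells. Hist1h2be was at 1.58 and 0.729 and 0.869 and 1.18 CPM (-0.10, adjusted p = 0.911). Hist1h2bq and Hist1h2br, which share 1 place with 2117 bases of exon, held 2 reads without and 8.5 with stimulus in KLF2+ cells, a ratio of 2.82 (exact 95% interval 0.529 to 25.6). Each row was at 0.113 and 0.0663 and then 0.264 and 0.218 CPM in KLF2+ cells, and at 0.813 and 1.17 and then 0.577 and 1.96 CPM in KLF2- cells.

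Of the H1 genes in the chromosome 13 cluster 3 rose, as did H1f0, the linker histone of non-dividing cells. Hist1h1b (chromosome 13, 21779832 to 21780625, minus strand) went from 0.788 and 0.795 CPM to 28.0 and 30.8 CPM in KLF2+ cells, by 5.19 ± 0.65 (edgeR adjusted p = 0.00108), with 0 and 0.457 and then 1.15 and 0.653 CPM in KLF2- cells. Hist1h1e (chromosome 13, 23621777 to 23622558, minus strand) went from 3.83 and 4.97 to 18.4 and 29.4 CPM, by 2.43 ± 0.44 (adjusted p = 0.00484). KLF2- cells had 2.32 and 3.86 CPM of it without and 2.31 and 2.61 CPM with stimulus. Hist1h1d rose from 0.450 and 0.828 to 4.27 and 4.41 CPM, by 2.73 ± 0.78 (adjusted p = 0.0254), against 0.581 and 1.01 CPM without and 0.0824 and 0.327 CPM with stimulus in KLF2- cells. Its call was lost without unstimulated KLF2+ replicate 1 (0.111), stimulated KLF2+ replicate 2 (0.0680), or unstimulated KLF2- replicate 3 (0.0540) or 4 (0.0554). Hist1h1c stood at 2.7 and 6.46 CPM and then 4.87 and 7.50 CPM, with overlapping groups and a log2 fold change of 0.41 (adjusted p = 0.609) that was -0.03 with factors from genes of at least 50 CPM and -0.10 without unstimulated KLF2+ replicate 1. KLF2- cells had 3.78 and 5.84 and then 1.32 and 4.25 CPM of it.

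H1f0 (chromosome 15, 79028212 to 79030500) had the highest CPM of the 70 in each group, with 133 and 196 CPM in unstimulated KLF2+ and 262 and 295 in stimulated KLF2+ cells. KLF2- cells had 159.8 and 191 CPM without and 144 and 116 CPM with stimulus. Its KLF2+ response was 0.76 ± 0.24 (edgeR adjusted p = 0.0356). The value was 0.28 with factors from genes of at least 50 CPM (adjusted p = 0.142), and the call was also lost without unstimulated KLF2+ replicate 1 (0.48, 0.206), stimulated KLF2+ replicate 1 (0.84, 0.0793) or 2 (0.67, 0.222), or unstimulated KLF2- replicate 3 (0.0769) or 4 (0.0760).

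**Figure D3:**
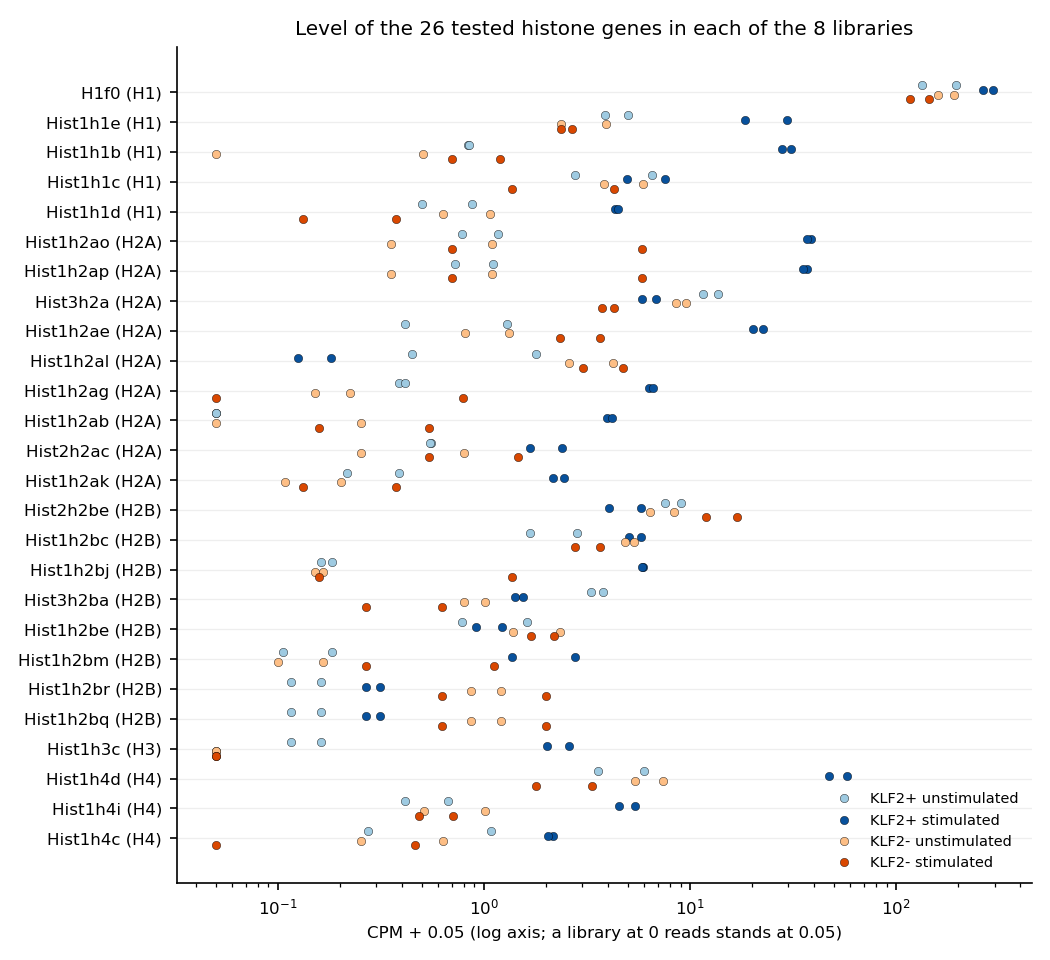
Each row is 1 of the 26 tested histone genes and each point 1 of the 8 libraries, coloured by group, as CPM + 0.05 on a log axis (a library with no reads stands at 0.05). For Hist1h4d the stimulated KLF2+ points lie at 47.0 and 57.8 CPM and all others at 7.32 CPM or below.

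The single gene that fell was Hist1h2al, annotated as a non-coding pseudogene model with 2982 bases of exon (chromosome 13, 51200084 to 51203066, minus strand), far from the cluster. It was at 1.74 and 0.398 CPM in unstimulated and 0.0755 and 0.131 CPM in stimulated KLF2+ cells, and at 4.18 and 2.54 and then 2.97 and 4.68 CPM in KLF2- cells. It held 36 reads at most in a library. In 7 of the 8 libraries these reads were fewer than background alone would give over its exons: 15.5 and 6 against 25.6 and 20.4 in unstimulated KLF2+, 1 and 3 against 11.4 and 6.42 in stimulated KLF2+, 36 and 25 against 25.1 and 26.7 in unstimulated KLF2- and 18 and 21.5 against 22.6 and 26.3 in stimulated KLF2- cells. No level above background was thus detectable for it in either KLF2+ group. The KLF2+ response was -3.15 ± 0.97 (edgeR adjusted p = 0.0320). It was lost without unstimulated KLF2+ replicate 1 (-1.80, 0.232), stimulated KLF2+ replicate 1 (0.0611) or 2 (0.103), or unstimulated KLF2- replicate 3 (0.0598) or 4 (0.0582). The testis genes and the other pseudogene were at or near 0. Hist1h1t and Hist1h2aa had no reads in KLF2+ cells and at most 0.871 and 0.152 CPM in a KLF2- library, Hist1h2ba at most 0.507 CPM and Hist3h2bb-ps at most 0.265 CPM in any library.

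Stimulation of KLF2- cells gave no called histone gene, and no called gene at all. Of the 26 members, 0 were called by edgeR (percentages over all genes 0.0% in either direction, 0.0% higher and 0.0% lower), with 7 members and 2802 genes at an unadjusted p under 0.05, and DESeq2 and limma also called 0 members. Both stimulated libraries lay above both unstimulated ones for 13 of the 70 members and below for 7, against 27.8% and 24.9% of the table's genes. The 7 members at an unadjusted p under 0.05 did not share a direction. Hist1h2ao (2.32), its shared row Hist1h2ap (2.31), Hist1h1b (2.06), Hist1h2ae (1.49) and Hist2h2be (0.98) had positive log2 fold changes. Hist1h4d (-1.29) and Hist3h2a (-1.18) had negative ones, and the adjusted p of the 7 ran from 0.275 to 0.338. The stimulated KLF2- libraries held 334.5 and 257 reads over the 60 loci, which limits what could be detected there.

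**Figure D4:**
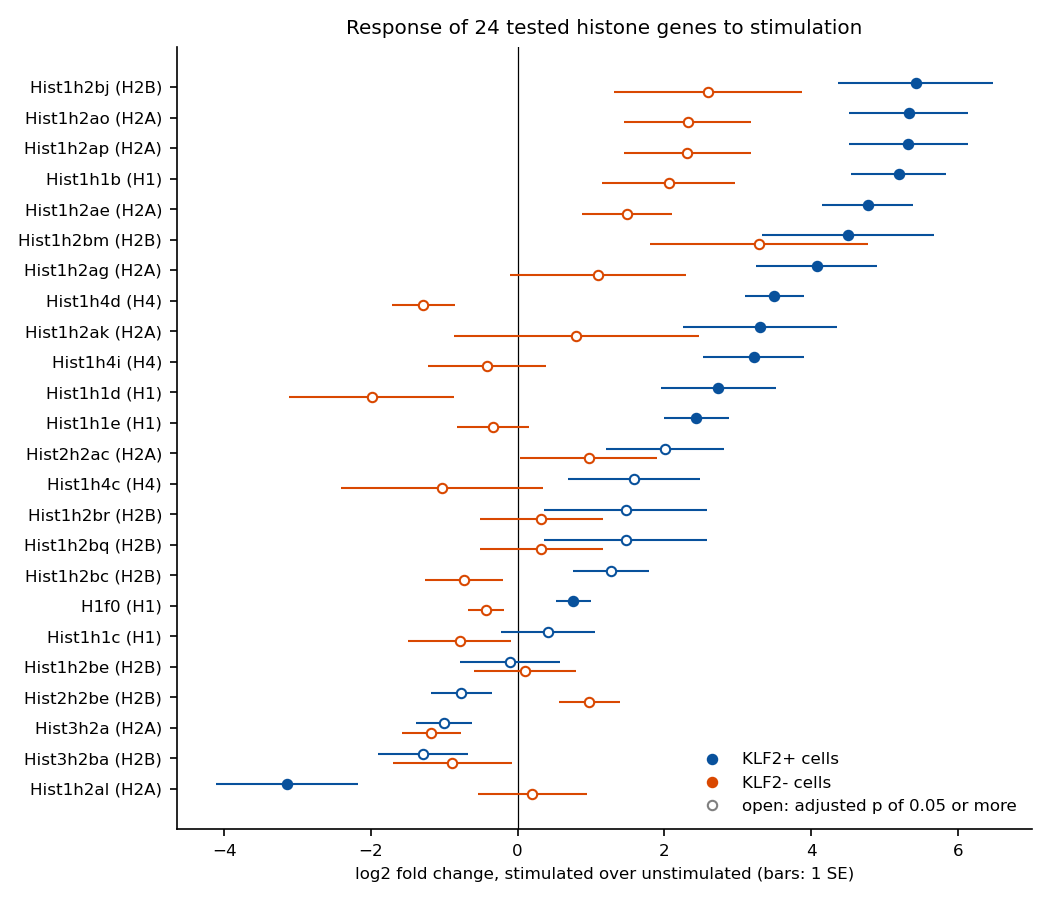
Points give the log2 fold change of stimulated over unstimulated cells with 1 SE (n = 2 per group) for 24 tested histone genes, in KLF2+ and in KLF2- cells. Filled points have an edgeR adjusted p under 0.05, open ones do not, and genes with a group at 0 reads are left out. Hist1h4d stands at 3.50 in KLF2+ and -1.29 in KLF2- cells.

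Before stimulation, KLF2+ and KLF2- cells did not differ in any histone gene by the test used. By edgeR 0 of 26 members were called (2.32% of all genes tested, 1.07% as higher and 1.25% as lower in KLF2+ cells), with 4 members and 3672 genes at an unadjusted p under 0.05. DESeq2 called 0 members, and limma called 1 as lower with either pseudocount. Both KLF2+ libraries lay above both KLF2- libraries for 14 of the 70 members and below for 15, against 21.6% and 29.7% of genes. Hist3h2ba, at 3.26 and 3.74 CPM in KLF2+ and 0.755 and 0.964 CPM in KLF2- cells, had a log2 fold change of 2.01 ± 0.66 (adjusted p = 0.159). Hist1h2bc was at 1.63 and 2.78 against 5.29 and 4.77 CPM (-1.19 ± 0.52, adjusted p = 0.252). The shared row of Hist1h2bq and Hist1h2br held 2 reads against 18.5, a ratio of 0.0832 (exact 95% interval 0.00963 to 0.357; adjusted p = 0.138). The median log2 fold change over the 26 was 0.17, or 0.08 with the 2 genes that had a group at 0 set to their bound, and -0.11 over all genes.

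With stimulus, KLF2+ cells held more histone RNA than KLF2- cells in most tested members. By edgeR 15 members were higher and 4 lower in KLF2+ cells, in a comparison that called 75.2% of all genes (35.5% higher and 39.7% lower). Over all 70, both KLF2+ libraries lay above both KLF2- ones for 40 and below for 9, against 34.3% and 45.3% of genes. The median log2 fold change was 2.94 over the 26 (2.42 with the gene at 0 set to its bound) and -0.19 over all genes. Factors from genes of at least 50 CPM gave 9 higher and 5 lower, and subtracting background gave 7 higher and 1 lower. This comparison and the KLF2+ response share the stimulated KLF2+ libraries. A gene could enter the test through those libraries alone, so the 26 are not a neutral sample for this comparison either.

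In stimulated cells the KLF2+ mean was 15.4 times the KLF2- mean for H4 (6.93 with factors from genes of at least 50 CPM), 9.85 times for H1 (4.17) and 6.00 times for H2A (2.67). It was 1.61 times for H3 but 0.671 with that scaling, and 1.004 for H2B but 0.433. Hist1h4d differed by 4.34 ± 0.44 (edgeR adjusted p = 0.000229), Hist1h1b by 4.97 ± 0.68 (0.000372), Hist1h1e by 3.28 ± 0.48 (0.000468) and Hist1h2ae by 2.86 ± 0.57 (0.00171). Hist1h3c, without a read in KLF2- cells, was at least 3.93-fold higher (adjusted p = 0.00395). H1f0 was called higher by 1.10 (0.00297), but its log2 fold change was -0.08 with factors from genes of at least 50 CPM, -0.18 after background subtraction and -0.33 by limma on TPM.

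The 4 members lower in stimulated KLF2+ than in stimulated KLF2- cells all had long exons. They were Hist1h2al (-5.02 ± 0.96, edgeR adjusted p = 0.00144), Hist2h2be (-1.57 ± 0.42, 0.00763) and the shared row of Hist1h2bq and Hist1h2br (-2.28 ± 0.89, 0.0404). In stimulated KLF2- libraries Hist2h2be held 72 and 77.5 reads, against 20.2 and 23.5 expected from background. Hist1h2al held 18 and 21.5 against 22.6 and 26.3, and the shared row 3.5 and 9 against 16.1 and 18.7. The part of background in these calls was not tested. Without stimulated KLF2- replicate 4 the values were -1.28 (0.0532) for Hist2h2be and -1.32 (0.365) for Hist1h2bq. Hist2h2be also lost its call without stimulated KLF2+ replicate 2 (-1.28, 0.0519), and Hist1h2bq without stimulated KLF2+ replicate 1 (0.0818) or 2 (0.168) and without unstimulated KLF2- replicate 3 (0.0883) or 4 (0.0909).

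The response to stimulation differed between the populations in 7 members. By edgeR 6 had a larger response in KLF2+ cells and 1 a smaller one (35.8% of all genes were called, 20.3% with a larger and 15.5% with a smaller response). Hist1h4d, for which the population responses had opposite signs, differed by 4.79 ± 0.58 (adjusted p = 0.00565). Hist1h1e, Hist1h2ae, Hist1h1d, Hist1h4i and H1f0 were the others with a larger response, and Hist2h2be had the smaller one. Hist1h1b (3.14, adjusted p = 0.0660) and Hist1h2ao (3.01, 0.0673) did not pass, although each was called in KLF2+ cells only. The count fell to 2 without unstimulated KLF2+ replicate 1, to 1 without stimulated KLF2+ replicate 2 or without either unstimulated KLF2- library, and to 3 without stimulated KLF2- replicate 4, and it was 11 without stimulated KLF2- replicate 3. It was 3 (1 larger and 2 smaller) with factors from genes of at least 50 CPM and 1 after background subtraction.

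Position, exon length and the stem-loop were read for each member as traits the choice of genes did not use. They are given over all 70 members, tested or not, as the number with both stimulated above both unstimulated KLF2+ libraries, a share that was 28.4% over the table's genes. On chromosome 13, home of the large Hist1 cluster, 44 of 55 members were higher by this count and 2 lower. On chromosome 3 the count was 5 of 10 higher and 1 lower, and on chromosome 11 it was 0 of 3 higher and 2 lower. Of 63 members with under 800 bases of exon 46 were higher and 3 lower, and of 7 longer ones 4 were higher and 2 lower. Where the annotated transcript held the stem-loop 33 of 44 members were higher and 2 lower, and where it did not 17 of 26 were higher and 3 lower. The traits overlap, and no test of one against another was made.

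Per length of exon, the leading gene changed between the groups. In unstimulated KLF2+ cells Hist3h2a led, with 22.8 and 27.0 CPM per kb, where Hist1h4d had 14.8 and 8.80. In stimulated KLF2+ cells the order was the same in both libraries: Hist1h4d (118 and 145 CPM per kb), Hist1h2ao (70.4 and 67.1), Hist1h2ae (36.5 and 40.4), Hist1h1b (35.4 and 38.9) and Hist1h1e (23.6 and 37.8). The replicate values of Hist1h2ae and Hist1h1b overlap, as do those of Hist1h1b and Hist1h1e. In unstimulated KLF2- cells Hist1h4d and Hist3h2a shared the first place (18.3 and 13.4 against 16.8 and 18.8). Stimulated KLF2- cells had Hist1h2ao first in replicate 3 (10.5) and Hist3h2a first in replicate 4 (8.41). H1f0 is left out of this order.

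Pairs of an H2A and an H2B gene that start back to back lie on either side of one promoter region, and their levels were often unequal. The table holds 12 such pairs with starts 164 to 281 bases apart. In stimulated KLF2+ cells the H2A gene had more CPM per kb in both libraries in 9 pairs and the H2B gene in 2. Both members were tested in 3 of the 12 pairs, and the other pairs include genes with few reads. The 9 include Hist3h2a, whose partner is the pseudogene Hist3h2bb-ps. They also include Hist2h2ac, which had fewer CPM than Hist2h2be (1.62 and 2.36 against 5.70 and 4.01) but more per kb. Hist1h2ag and Hist1h2bj, 249 bases apart and printed above, were alike, at 13.4 and 14.0 and at 12.9 and 12.6 CPM per kb, and both were called in the KLF2+ response. Hist1h2ae, 180 bases from Hist1h2bg and also printed above, was at 36.5 and 40.4 against 1.15 and 2.03 for its partner. Hist1h2bc was the reverse, at 7.93 and 6.90 CPM per kb against 1.95 and 1.40 for Hist1h2ac. Hist1h2ao was at 70.4 and 67.1 and Hist1h2bq at 0.125 and 0.103, and the latter is a long row that shares its place. Gene copies are close to identical in sequence, and the assignment of reads that align to several copies is not given in the sources used here, so values of single copies are uncertain.

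**Figure D5:**
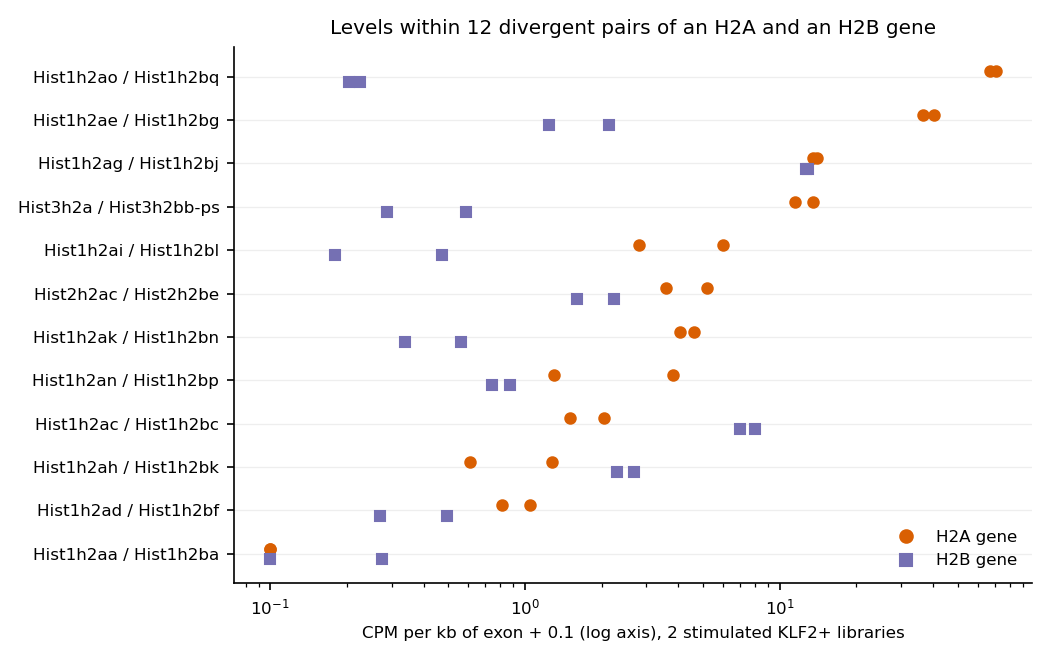
For each of 12 divergent pairs, circles give the H2A gene and squares the H2B gene in the 2 stimulated KLF2+ libraries, as CPM per kb of exon + 0.1 on a log axis. Hist1h2ag and Hist1h2bj lie together near 13 CPM per kb, while Hist1h2ae lies far above Hist1h2bg.

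The 44 members that were not tested were low throughout. Their median was 5 and 11.25 reads in the stimulated KLF2+ libraries and 0.25 to 1 read in each of the other 6. Together they summed to 5.29 and 8.81 CPM before and 20.3 and 26.2 CPM after stimulation of KLF2+ cells, and to 6.74 and 9.03 CPM before and 11.9 and 14.2 CPM after stimulation of KLF2- cells. Both stimulated libraries were above both unstimulated ones in KLF2+ cells for 30 of the 44 and below for 1, against 28.4% and 36.7% of the table's genes. The share among other genes with as few reads was not worked out. With no filter on low counts, edgeR called 5 of the 44 as higher in the KLF2+ response and 0 as lower, where 14.8% of all genes were called as higher and 16.2% as lower. They were Hist1h2an, Hist1h2bk, Hist1h3d, Hist1h3g and Hist1h3h, named after their values were seen.

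Many genes that make, bind and remove histone RNA also rose in stimulated KLF2+ cells. Of 22 tested genes of the stem-loop and 3′ processing list, 15 rose in the KLF2+ response, 0 fell and 7 did not pass (median log2 fold change 1.07, against -0.25 for all genes, of which 19.7% were called as higher and 17.4% as lower). These shares of all genes hold for each list below. With factors from genes of at least 50 CPM, which moved the median of all genes to -0.75, 9 of the 22 rose and 0 fell (median 0.57). Slbp, the stem-loop binding protein, went from 179 and 286 CPM to 755 and 700.1 CPM, by 1.64 ± 0.38 (edgeR adjusted p = 0.0117), while KLF2- cells had 142 and 137 and then 229.8 and 96.6 CPM. Casp8ap2, also known as FLASH, a factor of the histone locus body where these transcripts are made and cut, rose by 0.98 ± 0.17 (0.00419), and Snrpe, a core protein of small nuclear ribonucleoproteins, by 1.92 ± 0.29 (0.00234). Ncbp2 of the cap-binding complex rose by 1.25 ± 0.24. Lsm10 (0.33) and Lsm11 (-0.13), the proteins that set the U7 particle of histone processing apart, were not called (adjusted p = 0.35 and 0.702) and are named after their values were seen.

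Of 16 tested genes of histone transcription, 9 rose and 0 fell (median 0.97), or 7 and 1 with factors from genes of at least 50 CPM (0.47). Ccna2, cyclin A2 of S phase, went from 23.7 and 27.0 to 703 and 589 CPM, by 4.67 ± 0.59 (edgeR adjusted p = 0.00109), and Ccne2, an E cyclin of S phase entry, rose by 3.15 ± 0.40 (0.00109). The transcription factors E2f1 and E2f2 rose by 3.30 and 1.67. Npat, the coactivator of histone genes, was at 76.2 and 63.1 CPM and then 102 and 98.6 CPM in KLF2+ cells (0.53, not called, adjusted p = 0.0516). Of 10 tested genes of histone RNA decay, 5 rose and 0 fell (median 0.60), or 3 and 2 with those factors (0.12). Those that rose included Dis3, a nuclease of the exosome (1.72), Eri1, which trims the stem-loop end (1.44), and Dcp2, a decapping enzyme (1.42).

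Histone chaperones, which carry new histones to DNA, rose in 21 of 27 tested genes and fell in 0 (median 1.53), or rose in 17 and fell in 5 with factors from genes of at least 50 CPM (1.04). Chaf1a, the large subunit of the replication-coupled assembly factor CAF-1, went from 9.34 and 7.59 to 226 and 204 CPM (4.68 ± 0.61, edgeR adjusted p = 0.00128). KLF2- cells had 10.5 and 9.39 CPM of it without and 44.7 and 7.73 CPM with stimulus, high in replicate 3 alone. Nasp, which holds the pool of free H3 and H4, rose by 1.79 ± 0.25, Nap1l1 by 1.76 ± 0.21 and Mms22l by 2.41 ± 0.28. Of 12 tested genes of replication-independent histone variants, H1f0 not counted, 5 rose and 0 fell (median 0.80), or 4 and 1 with those factors (0.33). H2afz, which encodes H2A.Z, went from 308 and 436 to 1520.2 and 1391 CPM (1.97 ± 0.44), and H2afx, whose phosphorylated protein marks DNA breaks, from 71.7 and 80.3 to 402 and 390.1 CPM (2.38 ± 0.46). Cenpa, the histone of centromeres, rose by 2.86 ± 0.58, and H2afy by 1.37. H3f3b, which encodes H3.3, was at 1112 and 2079 CPM and then 2322 and 2720.2 CPM and was not called (0.66, adjusted p = 0.137).

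DNA replication genes were called higher in 36 of 37 cases in the KLF2+ response and lower in 0 (median 2.60), with the same counts under factors from genes of at least 50 CPM (2.10), for example Mcm10 by 4.25 ± 0.29. For every 100 CPM of these replication genes, the 60 histone loci had 2.11 and 2.01 CPM in unstimulated KLF2+, 1.49 and 1.86 in stimulated KLF2+, 2.46 and 2.87 in unstimulated KLF2- and 1.57 and 4.22 CPM in stimulated KLF2- cells. With background subtracted from both sums, the ratio was 0.639 and 1.45 in unstimulated and 1.43 and 1.84 in stimulated KLF2+ cells, so the order of the KLF2+ groups before subtraction did not hold after it and the groups overlapped. In KLF2- cells it was 0.654 and 1.17 without stimulus, and with stimulus 0.280 in replicate 3, while the histone reads of replicate 4 were below background. In the KLF2- response and between unstimulated populations, 0 genes of these 6 lists were called by edgeR. Larger KLF2+ than KLF2- responses were called in 14 of 22 processing, 7 of 16 transcription, 4 of 10 decay, 17 of 27 chaperone, 6 of 12 variant and 32 of 37 replication genes, and smaller ones in 0, against 20.3% and 15.5% of all genes. Factors from genes of at least 50 CPM cut the larger responses among all genes from 3890 to 1017. The counts were then 4, 1, 1, 9, 1 and 21, with smaller responses in 1 processing and 3 decay genes. After background subtraction larger responses were called in 2 of 22 processing, 0 of 16 transcription and 0 of 10 decay genes. They were called in 2 of 27 chaperone, 0 of 10 variant and 6 of 37 replication genes, and smaller ones in 0. For Slbp itself the difference was 1.41 ± 0.53 (adjusted p = 0.0586).

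Among markers of other cells, the myeloid ones fell in the KLF2+ response and few of the rest were called. Myeloid markers summed to 858 and 1605 CPM in unstimulated and 58.1 and 97.8 CPM in stimulated KLF2+ cells, and to 102 to 148 CPM in KLF2- cells; 6 of the 7 were called lower in the KLF2+ response, led by Lyz2 and C1qb, and Cd14 was not. Of the 7, C1qb alone was at 0 in a library, stimulated KLF2- replicate 4. B cell markers summed to 102 to 204 CPM in KLF2+ and 30.7 to 67.7 CPM in KLF2- libraries. In the KLF2+ response 1 of 6 (Blnk) was called higher, with a median log2 fold change of -0.07 over the 6. With stimulus 4 of 6 were called higher in KLF2+ than KLF2- cells, as were 35.5% of all genes. With factors from genes of at least 50 CPM that comparison gave 4 higher and 2 lower. Markers of CD8 T cells summed to 11.4 to 26.5 CPM, with 1 of 2 called higher in the KLF2+ response. Erythroid markers summed to 2.38 to 6.92 CPM, with 0 of 3 called in it. The part of these cells in the histone results was not tested.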

How the data were processed

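The authors counted reads over exons of RefSeq genes with HOMER, with no adjustment for depth, per the file headers, which gives estimated counts in multiples of 0.5. The deposited table of TPM values, transcripts scaled to a common sum, was used for the limma alternatives alone. The submitters' processing notes name STAR 2.7.9, HOMER 4.11, SAMtools and DESeq2, and the build mm10. How strand, and reads that align to several places, were treated is not given in the sources used here. Hist1h2bq and Hist1h2br, on the same coordinates and opposite strands, held the same reads in every library. Reads there thus appear to have been counted without regard to strand, and values may include antisense reads. Total exon reads were 2.99 M to 36.6 M per library.

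Counts were rounded and filtered with edgeR's filterByExpr, which kept 19146 of 25124 genes. One edgeR fit (version 4.0.16, in R 4.3.3) held all 8 libraries, with TMM factors and a coefficient for each group (4 residual degrees of freedom). The quasi-likelihood F test gave p-values, adjusted by the Benjamini-Hochberg method over all genes tested, and genes under 0.05 were called. SE is the absolute log2 fold change over the square root of F. CPM are counts scaled to a common depth of tested genes with TMM factors. The script was tested on simulated data.

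Alternatives were RLE factors, DESeq2 1.42.0, no filter, a mean CPM filter of 1, factors from genes of at least 50 CPM, background subtraction (reads per kb over 1444 receptor genes, 1659.4 kb, with those factors), limma 3.58.1 on log2 TPM with pseudocounts 1 and 0.1, leaving out each library, a replicate block and, added after the data were seen, 1 row per locus. Exact intervals cover counting error only.

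The members, gene lists and tests were chosen with earlier results of these data known. Values in every library were given for the 4 most abundant members of each family, up to 4 called members of smallest p in each direction and contrast, and the histones that the rule took although they are not replication-dependent; rows that share a place, and genes near 0, were given together or by their highest value. Of each other list, up to 4 called genes of smallest p were named, with Slbp, Npat, Casp8ap2, H2afz, H2afx and H3f3b. The lists were stem-loop and 3′ processing, histone transcription, histone RNA decay, chaperones, variants and DNA replication, with markers of T, B, myeloid, CD8 T and erythroid cells.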

Additional observations from a re-analysis of the deposited data

Results flagged for a closer look

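The following 7 genes responded differently to stimulation in KLF2+ and KLF2- cells by the test of the difference itself (edgeR, adjusted p under 0.05), given as log2 fold change in KLF2+ minus that in KLF2- cells with its SE, n = 2 per group. In the H4 family, Hist1h4d differed by 4.79 ± 0.58 (edgeR adjusted p = 0.00565) and Hist1h4i by 3.63 ± 1.04 (0.0295). In the H1 family, Hist1h1e differed by 2.77 ± 0.65 (0.0205), Hist1h1d by 4.73 ± 1.34 (0.0290) and H1f0 by 1.19 ± 0.34 (0.0294). The H2A gene Hist1h2ae differed by 3.28 ± 0.86 (0.0244), and the H2B gene Hist2h2be by -1.74 ± 0.59 (0.0442).

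The Hist1h4d difference was called in each of its 18 alternatives, at 3.64 to 5.40 with an adjusted p of at most 0.0349. Each of the other 6 lost its call in 6 to 10 of 18. The H1f0 difference ran from 0.14 to 1.54 over its alternatives, and Hist1h1d rested on 2 reads in stimulated KLF2- cells.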

How the results depend on the processing

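The KLF2+ response called 16 members (10 to 18 with 1 library left out), the KLF2- response 0, unstimulated KLF2+ against KLF2- cells 0, the stimulated comparison 19 and the difference in response 7 (1 to 11 with 1 library left out). Moved counts were 1 for the unstimulated comparison by limma with either pseudocount, and 8 for the stimulated comparison after background subtraction. For the difference they were 12 with no filter, 12 by DESeq2, 3 with factors from genes of at least 50 CPM and 1 after background subtraction; the cause was not tested. Those factors moved the calls of all genes from 3771 higher and 3325 lower to 2167 and 5667 in the KLF2+ response, from 6799 and 7597 to 2280 and 11169 in the stimulated comparison, and from 3890 and 2965 to 1017 and 5102 in the difference. Same-numbered samples did not deviate together in both populations (correlation 0.537 for KLF2+ and 0.0865 for KLF2- cells over 19146 genes), so the replicate numbers were not taken to pair them. With the replicate block the counts were 21 for the KLF2+ response, 3 for the KLF2- response and 13 for the difference.

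Direction turned for H1f0 in the stimulated comparison (-0.08 with factors from genes of at least 50 CPM, -0.18 after background subtraction, -0.33 by limma with either pseudocount) and for Hist1h1c in the KLF2+ response (-0.03 with those factors, -0.13 and -0.15 by limma, -0.10 to 1.23 with 1 library left out, lowest without unstimulated KLF2+ replicate 1). Of 851 values for 50 gene results under alternatives, 725 kept direction and side of the threshold, 106 lost the call, 12 gained one and 8 turned. In the KLF2+ response Hist1h4d, Hist1h1b, Hist1h2ae, Hist1h2ao, Hist1h2ap, Hist1h1e, Hist1h2ab, Hist1h2bj, Hist1h2ag and Hist1h4i were called in every alternative that tested them. Depth limits the KLF2- libraries and unstimulated KLF2+ replicate 1, with 257 to 534.5 reads over the 60 loci.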
